A study of Rattus norvegicus with 8 samples.

Results

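Mgp, Htra1, Cpxm1, Sfrp1, Sfrp2, Frzb, Dkk3, Bmp4, Id1 and Id3 were followed in cultured rat hippocampal neurons that received an shRNA against Sirt6, a nuclear deacetylase of the sirtuin family, or a scrambled shRNA. The first 7 encode secreted proteins listed here as modulators of bone morphogenetic protein (BMP), transforming growth factor beta (TGF-beta) or Wnt signals, Bmp4 is itself a BMP ligand, and Id1 and Id3 are genes that BMP signals switch on. The genes were taken by name from the annotation of the non-control probes on the arrays. All 10 were present, through 14 probes, and all 10 were among the 22549 genes tested. They were chosen by their log2 differences between the 2 shRNAs as well as by their roles, so their own values in that contrast are given as a description, with no test.

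The neurons were from Wistar rats of postnatal day 0-1. Lentiviral vectors were added on day 3 in vitro (multiplicity of infection 6), and the cells were kept for a further 7 days and harvested on day 10. Both groups carried a vector: 4 samples had the scrambled shRNA and 4 the Sirt6 shRNA, each hybridised to its own 1-colour array. The stated aim was to learn what SIRT6 does while neurons take their shape. The labels name a single Sirt6 shRNA. Nothing in them tells separate cultures or animals from repeat preparations within a group, so each p-value reflects the spread among these samples alone, which could be technical. All 8 arrays lay on 1 slide, with the scrambled samples in row 1 and the Sirt6 shRNA samples in row 2, and the effects of row and group cannot be told apart.

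BMP ligands bind receptor kinases that phosphorylate Smad proteins, which then switch on genes such as the Id family. Wnt ligands bind Frizzled receptors and, in the canonical branch, stabilise beta-catenin, which works with TCF/LEF factors on target genes. Both pathways are held in check outside the cell by secreted proteins that bind the ligand or its receptor, and in the developing hippocampus they are known to bear on cell fate, dendrite growth and synapse formation.

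The processed signal of the Sirt6 probe was 1336 ± 13.1 in the scrambled group and 476.6 ± 20.2 in the Sirt6 shRNA group (SD, n = 4 each). On the log2 scale it fell by 1.53 with an SE of 0.040, to 34.6% of the scrambled level (limma, Benjamini-Hochberg adjusted p = 5.5e-06). Levels are log2 processed signal minus the array's 75th percentile, so a level of 0 is that percentile. Between 60.4% and 65.3% of the 45598 non-control probes were well above background on each array. Across all genes tested, the median log2 difference (Sirt6 shRNA minus scrambled) was 0.02, and 30.4% passed an adjusted p of 0.05, 15.6% higher and 14.8% lower. Higher calls were 51.3% of all calls in this scaling, 35.2% when arrays were centred on their median and 63.4% when they were scaled to spiked-in E1A RNA. Of the neuron markers, Snap25 and Syt1, which encode synaptic vesicle release proteins, and Map2, of dendritic microtubules, were well above background on every array. The tested markers of astrocytes, microglia and the oligodendrocyte lineage were so too. Tested genes had first passed a filter on dim probes, which favours such detection.

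Among the 10 genes, 5 were lower in the Sirt6 shRNA group with no overlap between the groups, against a background of 16.1% of all genes tested. These were Mgp, Htra1, Cpxm1, Sfrp2 and Frzb. Id1 alone was higher with no overlap, where 17.4% of all genes tested were so. The remaining 4, Sfrp1, Dkk3, Bmp4 and Id3, had overlapping groups. All 10 were well above background on all 8 arrays, although Bmp4 had a processed signal of at most 34.4. The shares of all genes are set beside these counts for scale only, since the members were picked with this contrast in view. In a bulk culture, fewer cells that make an RNA and less of that RNA per cell cannot be told apart.

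**Figure D1:**
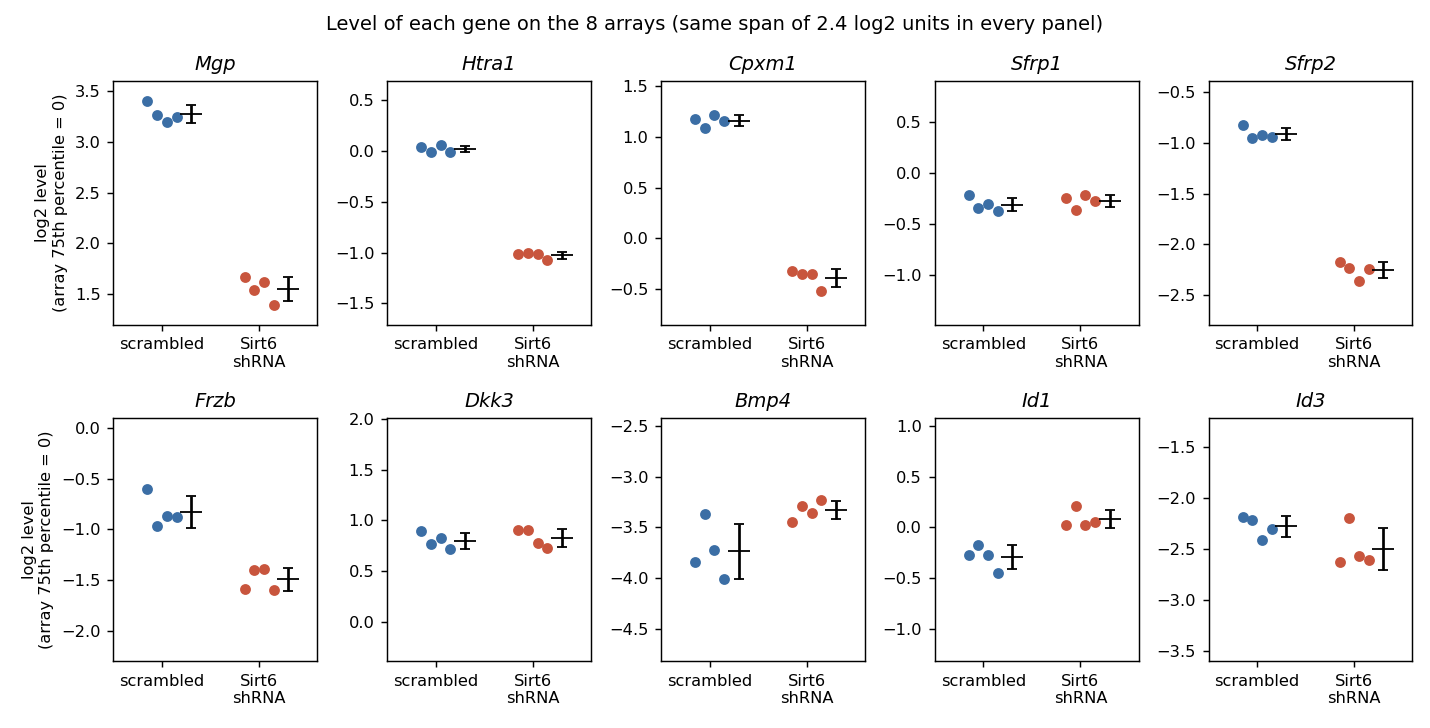
Level of each of the 10 genes (log2 processed signal minus the array's 75th percentile) on each of the 8 arrays, with scrambled and Sirt6 shRNA samples side by side and bars at the mean ± SD of 4 samples. Mgp, Htra1, Cpxm1, Sfrp2 and Frzb separate downwards, Id1 separates upwards, and Sfrp1, Dkk3, Bmp4 and Id3 overlap.

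Upstream windows are shown for Htra1, Cpxm1 and Sfrp2, the genes with the furthest decreases among those whose promoter was in the RefSeq table (build GRCr8), which held 7 of the 10. Each sequence below is the 250 bases before the annotated start of the gene, 5′ to 3′ on its own strand, with capitals at CCAAT or GGGCGG on either strand. Htra1 is at chr1:194927819-194928068 on the plus strand, Cpxm1 at chr3:138048444-138048693 on the minus strand and Sfrp2 at chr2:171387286-171387535 on the plus strand.
Htra1: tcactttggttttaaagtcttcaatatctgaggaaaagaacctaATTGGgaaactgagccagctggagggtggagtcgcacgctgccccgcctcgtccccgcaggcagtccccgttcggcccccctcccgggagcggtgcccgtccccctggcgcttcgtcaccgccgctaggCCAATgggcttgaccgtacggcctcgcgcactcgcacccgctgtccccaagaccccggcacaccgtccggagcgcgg
Cpxm1: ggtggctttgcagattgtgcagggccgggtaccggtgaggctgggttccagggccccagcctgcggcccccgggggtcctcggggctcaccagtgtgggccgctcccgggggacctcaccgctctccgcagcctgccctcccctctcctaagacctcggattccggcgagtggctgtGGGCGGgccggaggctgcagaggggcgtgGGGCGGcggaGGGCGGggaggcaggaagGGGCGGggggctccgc
Sfrp2: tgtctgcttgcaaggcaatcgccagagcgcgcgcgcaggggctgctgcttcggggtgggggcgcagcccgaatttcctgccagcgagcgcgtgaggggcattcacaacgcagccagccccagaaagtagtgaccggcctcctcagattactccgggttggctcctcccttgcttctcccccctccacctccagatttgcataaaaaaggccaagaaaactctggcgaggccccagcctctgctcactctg

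The 3 windows do not share a motif among those searched. Htra1 holds CCAAT at 206 and 77 bases before the start, the first on the minus strand. Cpxm1 holds GGGCGG 4 times, at 73, 44, 34 and 16 bases before the start, and is 75.6% G and C, against a median of 51.2% over all windows. Sfrp2 holds neither. The search covered both strands of 33469 promoter windows of 250 bases. The BMP-responsive GC box GGCGCC was in 8.70% of them, the SMAD element GTCTAGAC in 0.173%, the TCF/LEF sites CTTTGAT and CTTTGAA in 3.15% and 4.68%, the AP-1 site TGACTCA in 4.05% and the CRE TGACGTCA in 1.59%, and each of these was in 0 of the 7 windows of these genes. TATAAA was in 12.9% of all windows and in 1 of the 7 (Id1), CCAAT in 34.0% and in 3 (Htra1, Frzb, Id1), and GGGCGG in 30.5% and in 4 (Cpxm1, Id1, Id3, Bmp4). These last 3 motifs were added after the windows had been seen. A match is only a run of letters, and no match says only that these letters are not in these 250 bases.

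Mgp encodes matrix Gla protein, a small vitamin K-dependent matrix protein that inhibits calcification and binds BMP ligands. Its probe (rn4 chr4:173910827-173910886, minus strand) gave processed signals of 3312, 3063, 3039.7 and 3033 in the 4 scrambled samples. In the Sirt6 shRNA samples the signals were 1049, 948, 1047 and 849. The lowest scrambled sample was thus far above the highest Sirt6 shRNA sample, with a gap of 1.53 between them on the log2 scale. The mean level was 3.27 ± 0.092 against 1.55 ± 0.12 (SD, n = 4 each), and the log2 difference was -1.72 with an SE of 0.071, so Mgp stood at 30.3% of its scrambled level. Mgp was rank 19 from the lowest among the 22549 genes ordered by log2 difference.

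Htra1 encodes a secreted serine protease that cleaves matrix proteins and is known to inhibit TGF-beta family signals. Its probe (rn4 chr1:190307726-190307785, plus strand) gave processed signals of 322, 318, 346 and 319.6 in the scrambled samples and 164, 163, 169 and 153 in the Sirt6 shRNA samples. Both groups were tight, with an SD of 0.033 on the log2 scale in each. The level went from 0.020 to -1.03, a log2 difference of -1.05 with an SE of 0.035, which is 48.4% of the scrambled level. It was rank 113 from the lowest. Under normexp background correction the log2 difference was -0.83.

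The Mgp and Htra1 probes were each printed at several places on the array, which shows the measuring error within an array. Mgp had 10 spots on every array, and the 40 scrambled spots ran from 2778 to 3592 while the 40 Sirt6 shRNA spots ran from 810.3 to 1124. Htra1 had 6 to 10 spots after outlier spots were left out, from 289.6 to 370.9 over 39 scrambled spots and from 142 to 189 over 36 Sirt6 shRNA spots. No spot of one group reached the range of the other for either gene. Within an array the SD over spots on the log2 scale was 0.034 to 0.062 for Mgp and 0.063 to 0.094 for Htra1. Spots of 1 array are repeats of 1 sample and add nothing to n.

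**Figure D2:**
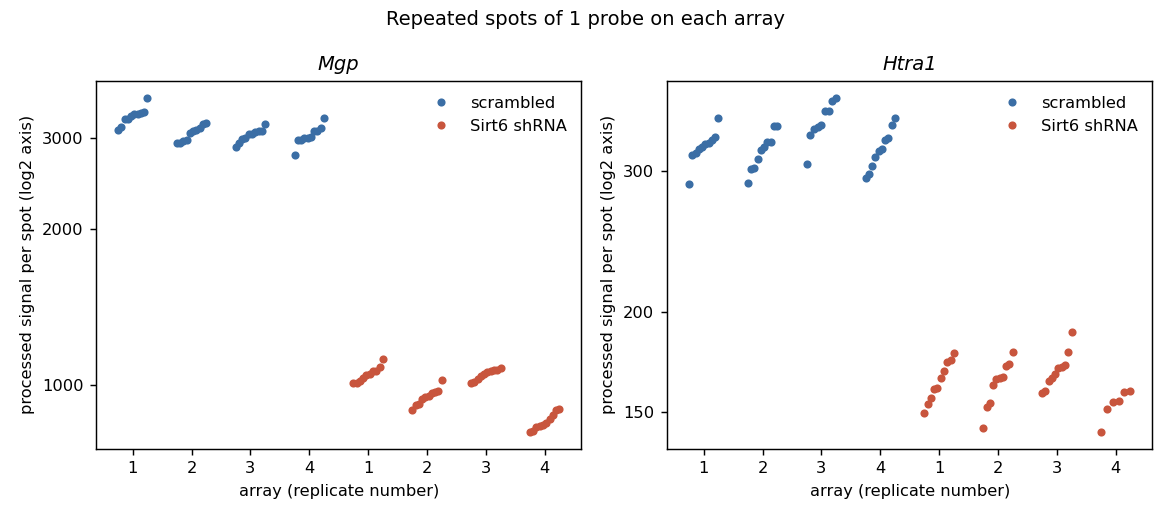
Processed signal of every spot of the Mgp probe (left) and the Htra1 probe (right) on each array, on a log2 axis, in rising order within an array; each point is 1 spot. The 40 Mgp spots of the Sirt6 shRNA arrays lie between 810.3 and 1124, below all 40 scrambled spots, and Htra1 shows the same separation.

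Cpxm1 encodes a secreted member of the carboxypeptidase family for which no enzyme activity is established. Its probe (rn4 chr3:118003306-118003365, minus strand) gave processed signals of 706, 681, 773 and 718 in the scrambled samples. The Sirt6 shRNA samples gave 265, 256, 267 and 226, with replicate 4 the lowest and no overlap. The level went from 1.16 ± 0.053 to -0.39 ± 0.088, a log2 difference of -1.55 with an SE of 0.053, or 34.3% of the scrambled level. Cpxm1 was rank 29 from the lowest, next to Sirt6 at rank 30.

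Sfrp1, Sfrp2 and Frzb belong to 1 family of secreted Frizzled-related proteins, which carry a Frizzled-like domain that binds Wnt ligands. Sfrp2 and Frzb were lower in the Sirt6 shRNA group, whereas the groups of Sfrp1 overlapped. Sfrp2 (rn4 chr2:175486729-175486788, plus strand) had processed signals of 177, 166, 175 and 167 in the scrambled samples and 73.5, 69.7, 66.6 and 68.1 in the Sirt6 shRNA samples. The groups were well apart, with a log2 difference of -1.34 and an SE of 0.052, or 39.5% of the scrambled level. Under normexp background correction the log2 difference of Sfrp2 was -0.93.

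Frzb (rn4 chr3:63350505-63350564, minus strand) had processed signals of 206, 163, 182 and 175 in the scrambled samples. In the Sirt6 shRNA samples they were 111, 124, 131 and 107. The groups did not overlap, but the gap of 0.42 on the log2 scale was far smaller than for Mgp, and scrambled replicate 1 stood above the others. The level went from -0.83 ± 0.16 to -1.49 ± 0.11, a log2 difference of -0.66 with an SE of 0.090, or 63.2% of the scrambled level. Frzb was rank 455 from the lowest. Without scrambled replicate 1 the log2 difference was -0.59.

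Sfrp1 had overlapping groups on both of its probes. The brighter probe (rn4 chr16:73031711-73031770, minus strand) gave 269, 252, 269 and 248 in the scrambled samples and 279.9, 255, 295 and 267 in the Sirt6 shRNA samples. Its log2 difference was 0.037 with an SE of 0.049. The other probe (rn4 chr16:73028112-73028171) gave a log2 difference of 0.21 with an SE of 0.084, also with overlap. On the brighter probe the difference was smaller than the SD of either group, 0.067 and 0.062.

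Dkk3 encodes a secreted protein of the Dickkopf family, whose best-known members block the Wnt co-receptors LRP5 and LRP6. Its brightest probe (rn4 chr1:169925984-169926043, minus strand) gave processed signals of 583, 545, 588 and 527 in the scrambled samples and 619, 612, 585 and 535 in the Sirt6 shRNA samples. The groups overlapped, with a log2 difference of 0.027 and an SE of 0.060. The 3 other probes gave log2 differences of -0.08, -0.16 and 0.10, all with overlapping groups. The 4 probes thus gave differences of both signs.

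Bmp4 encodes a BMP ligand. Its probe (rn4 chr15:22283362-22283421, minus strand) was the dimmest of the 10 genes' main probes, with processed signals of 21.9, 31.0, 25.2 and 20.0 in the scrambled samples and 30.4, 33.3, 33.4 and 34.4 in the Sirt6 shRNA samples. Scrambled replicate 2 lay within the Sirt6 shRNA range, and the other scrambled samples lay below it. The log2 difference was 0.40 with an SE of 0.13, or 132% of the scrambled level. Without scrambled replicate 2 it was 0.52, without scrambled replicate 4 it was 0.31, and under normexp background correction it was 0.11.

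Id1 encodes an inhibitor of basic helix-loop-helix factors and is a standard readout of BMP signalling. Its probe (rn4 chr3:143087157-143087216, plus strand) gave processed signals of 259, 283, 276 and 235 in the scrambled samples and 337, 379, 349 and 336 in the Sirt6 shRNA samples. Every Sirt6 shRNA sample was above every scrambled sample, with a gap of 0.20 on the log2 scale. The level went from -0.29 ± 0.12 to 0.080 ± 0.089, a log2 difference of 0.37 with an SE of 0.070, or 129% of the scrambled level. Without Sirt6 shRNA replicate 2, the highest sample, the log2 difference was 0.33.

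Id3, the second Id gene followed here, did not go the same way. Its probe (rn4 chr5:154935647-154935706, plus strand) gave processed signals of 68.8, 69.1, 62.7 and 64.9 in the scrambled samples and 53.5, 71.5, 57.5 and 53.0 in the Sirt6 shRNA samples. On the level scale 3 Sirt6 shRNA samples lay below all scrambled samples, while replicate 2, at -2.19, lay within their range of -2.41 to -2.18. The log2 difference was -0.22 with an SE of 0.10, and -0.33 without Sirt6 shRNA replicate 2. The same replicate 2 was the highest Sirt6 shRNA sample for Id1.

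**Figure D3:**
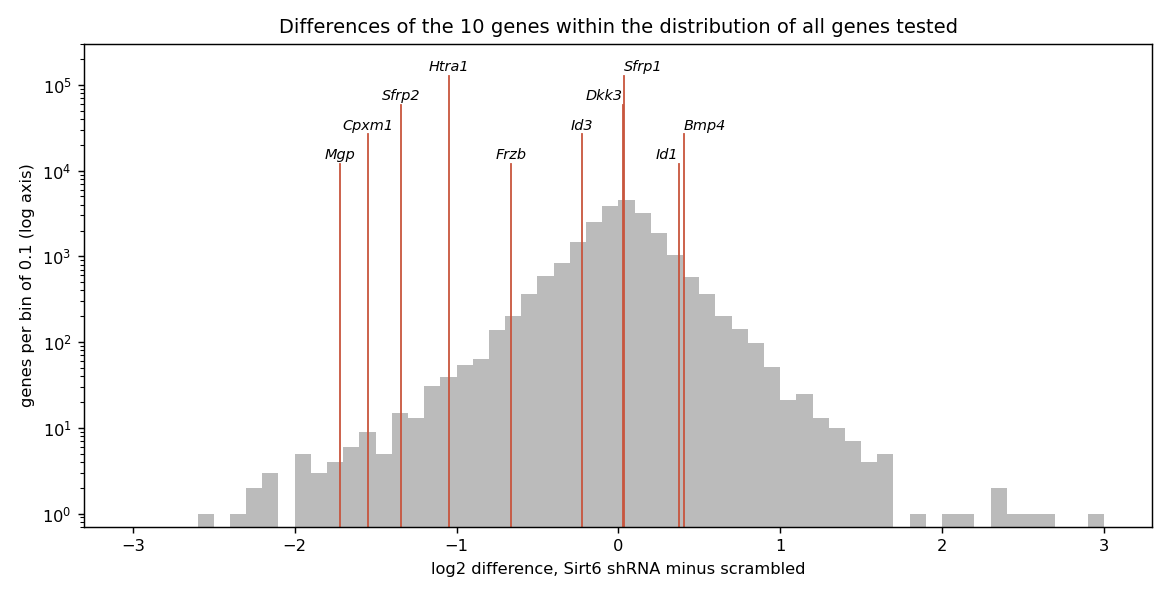
Distribution of the log2 difference (Sirt6 shRNA minus scrambled, x axis) over the 22549 genes tested, as a histogram of gene counts on a log axis, with a marked line for each of the 10 genes. Mgp, Cpxm1, Sfrp2 and Htra1 lie far out in the lower tail, Frzb lies nearer to the bulk, and Sfrp1 and Dkk3 lie at its centre near 0.02.

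Variation that the members share within groups was examined next. Probes of different members shared at most a run of 10 of 60 bases over 84 probe pairs, so their sequences overlap little. Scrambled replicate 1 was the highest of its group for 6 of the 10 genes. Over all genes tested, scrambled replicate 1 was the highest of its group for 35.2%. Sirt6 shRNA replicate 4 was the highest of its group for 31.95% of all genes tested and for 1 of the 10 members.

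Levels were next compared across the 8 arrays. Correlations over these arrays mostly reflect the gap between the groups, so the correlation of deviations from the group means is given beside each, and all points share the same 8 arrays. Htra1 and Cpxm1 were each among the 3 genes most like the other, out of all genes tested, with Pearson's r of 0.9991 over the arrays and 0.88 within groups. Mgp was most like Bag3, a co-chaperone gene (r = 0.9996, 0.97 within groups), then Nt5dc2 (0.9993, 0.94) and Hras, a small GTPase (0.9988, 0.90). Sfrp2 was most like Paqr8, a membrane progestin receptor gene (0.9991, 0.91 within groups), and Frzb was most like D2hgdh, a mitochondrial dehydrogenase gene (0.9912, 0.94). Within groups Mgp followed Htra1 at r = 0.52 and Sfrp2 at 0.35. Bmp4 and Id1 had an r of 0.76 within groups, and Id1 and Id3 an r of 0.64 although their group differences had opposite signs. Bmp4 and Id3 had an r of 0.19. Values this high were not particular to the BMP genes, since Dkk3 had an r of 0.77 with Htra1 and 0.71 with Sfrp2 within groups. Genes named as most like a member were picked by r over these arrays, which also favours a high r within groups. Both of their values are thus high by selection. All values here are descriptions over 8 arrays.

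The genes around these members were counted in 11 lists of ligands, receptors, inhibitors and targets. Of 164 listed genes 136 were tested, and 64 passed an adjusted p of 0.05 (limma), 27 higher and 37 lower. That is 47.1%, against 30.4% over all genes, with a median log2 difference of -0.04 against 0.02. The lists were chosen with earlier results of these data known, so the share of all genes is given for scale only. The same holds for the counts of each list below, where 15.6% of all genes passed higher and 14.8% lower. The split depended on the scaling, with 15 higher and 37 lower when arrays were centred on their median and 15 higher and 14 lower when scaled to the spiked-in E1A RNA. Over all genes, 25.2% passed with median centring and 14.8% with E1A scaling. The higher calls numbered 17 when replicate 4 of either group was left out, and 18 without Sirt6 shRNA replicate 3. In the paragraphs that follow, differences are log2 with their SE, and adjusted p-values are from limma with Benjamini-Hochberg adjustment over all genes tested. Values under normexp background correction carry an offset of 50 on every signal, which by itself makes the differences of dim probes smaller.

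**Figure D4:**
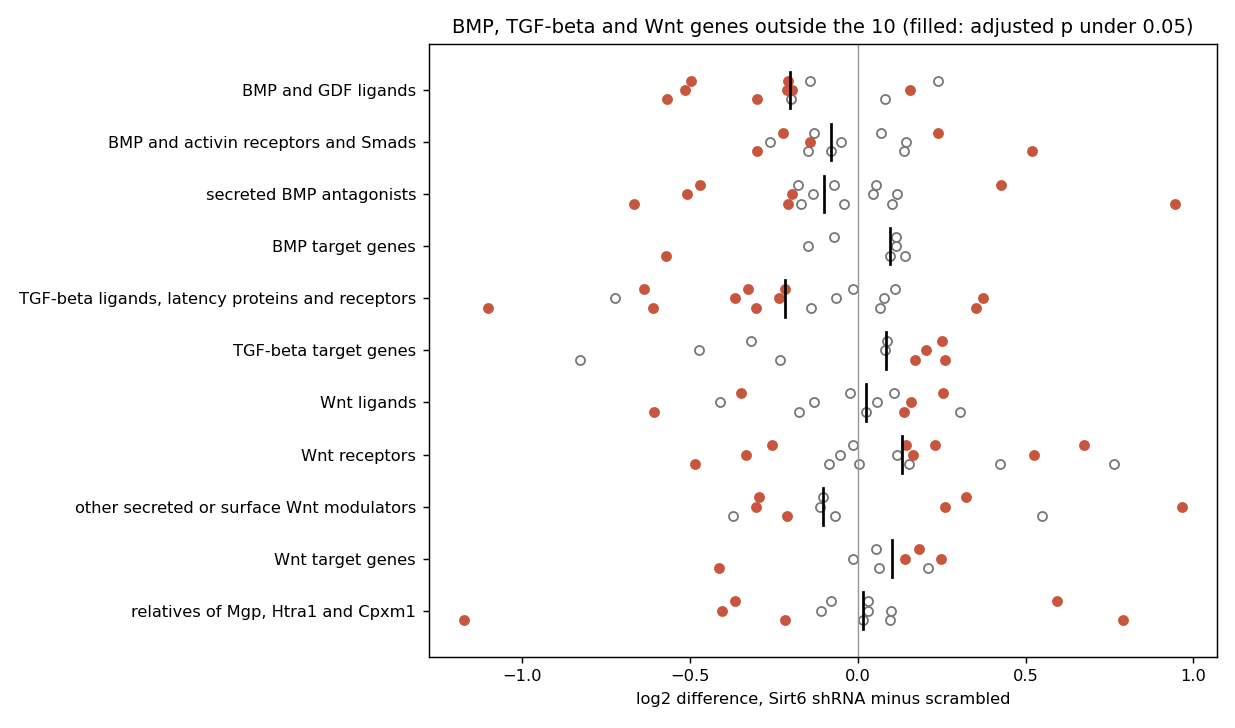
Log2 difference (Sirt6 shRNA minus scrambled, x axis) of each tested gene in the 11 pathway lists, 1 row per list; each point is 1 gene, filled where it passed an adjusted p of 0.05, and the tick marks the median of the list. The ligand lists of BMP and TGF-beta lie mostly to the left of 0, and the Wnt receptor list mostly to the right.

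Among BMP and GDF ligands 7 of 12 fell and 1 rose, with a median log2 difference of -0.20. Bmp6 fell by 0.50 with an SE of 0.092 (adjusted p = 0.00521). Inhba, the activin A subunit, fell by 0.52 with an SE of 0.13 (adjusted p = 0.0179), and Gdf11, a ligand that limits neurogenesis, fell by 0.30 with an SE of 0.038 (adjusted p = 0.000973). Bmp8a had a log2 difference of -0.57 (adjusted p = 0.00759) and was well above background on 1 of 4 Sirt6 shRNA arrays. Bmp7 was the gene that rose, by 0.16 (adjusted p = 0.0364), a call lost without any 1 array other than scrambled replicate 1 (adjusted p up to 0.0886). The count of 8 was 5 without scrambled replicate 2, 3 or 4 or Sirt6 shRNA replicate 4, 4 without Sirt6 shRNA replicate 3, and 2 when arrays were scaled to spiked-in RNA, where Inhba and Gdf11 missed the threshold (adjusted p = 0.0608 and 0.104). Under normexp background correction the log2 difference was -0.27 for Bmp6, -0.27 for Inhba and -0.13 for Bmp8a.

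Among BMP and activin receptors and Smads 2 of 13 rose and 3 fell, with a median of -0.08. Acvr2b, a type II activin receptor, rose by 0.52 with an SE of 0.078 (adjusted p = 0.00209). Its relative Acvr2a fell by 0.30 (adjusted p = 0.028) on its brighter probe, with -0.07 on the other, and missed the threshold without any 1 array other than scrambled replicate 4 or Sirt6 shRNA replicate 1, with adjusted p up to 0.0732. Of the BMP co-receptors, Rgma fell by 0.22 (adjusted p = 0.0195, rising to 0.052 if Sirt6 shRNA replicate 3 is left out) and Rgmb rose by 0.24 (adjusted p = 0.0264, and up to 0.0706 without scrambled replicate 2 or 4 or Sirt6 shRNA replicate 1, 3 or 4). The type I receptors Bmpr1a and Bmpr1b had log2 differences of -0.15 and -0.13 and did not pass. The list had 2 calls without scrambled replicate 2 or without Sirt6 shRNA replicate 3 or 4, and 3 without scrambled replicate 3 or 4 or Sirt6 shRNA replicate 1 or 2. It had 1 call with E1A scaling and 1 with no filter on dim probes. Acvr2b had a log2 difference of 0.22 under normexp background correction.

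Of the other secreted BMP antagonists 5 of 16 fell and 2 rose, with a median of -0.10. Nbl1, also known as Dan, fell by 0.67 with an SE of 0.038 (adjusted p = 3.3e-05). Bmper, a BMP-binding endothelial regulator, fell by 0.47 with an SE of 0.048 (adjusted p = 0.000355), and Chrdl1, a chordin-like protein made by astrocytes, fell by 0.51 with an SE of 0.11 (adjusted p = 0.011). Crim1, a membrane protein that binds BMP ligands, fell by 0.21 (adjusted p = 0.00592). Vwc2, or brorin, rose by 0.95 with an SE of 0.20 (adjusted p = 0.00995), and its paralog Vwc2l rose by 0.43 (adjusted p = 0.0192, rising to 0.0526 if Sirt6 shRNA replicate 3 is left out). Vwc2 and Vwc2l had log2 differences of 0.18 and 0.10 under normexp background correction, and with E1A scaling Crim1 missed the threshold (adjusted p = 0.355). The classical antagonists Nog and Chrd had log2 differences of -0.13 and -0.18 and did not pass.

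Beside Id1 and Id3, 1 of 7 tested BMP target genes changed. Id4 fell by 0.57 with an SE of 0.038 (adjusted p = 5.9e-05), at 67.3% of its scrambled level. Id2 had a log2 difference of 0.11 (adjusted p = 0.203, and 0.0498 without scrambled replicate 1). Smad7, Hey1, Bambi, Msx1 and Atoh8 lay between -0.15 and 0.14 and did not pass. The Id genes thus went in different directions, with Id1 at 129% and Id4 at 67.3% of the scrambled level. The list had 2 calls without scrambled replicate 1.

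Of TGF-beta ligands, latency proteins and receptors 8 of 17 fell and 2 rose, with a median of -0.22. Itgb8, the integrin subunit that releases active TGF-beta from its latent form, fell to 46.6% of its scrambled level (adjusted p = 6.1e-05), and its other probe gave a log2 difference of -1.09. Its partner Itgav fell by 0.33 (adjusted p = 0.00036). Emilin1, a matrix protein that restrains TGF-beta maturation, fell by 0.61 with an SE of 0.054 (adjusted p = 0.000183), and the ligands Tgfb1 and Tgfb2 fell by 0.64 (adjusted p = 0.0176, with overlapping groups) and 0.37 (adjusted p = 0.00341). Tgfbr1, the type I receptor, rose by 0.35 (adjusted p = 0.00202). Lrrc32, which anchors latent TGF-beta on cells, rose by 0.37 (adjusted p = 0.017). The list had 9 to 11 calls when any 1 array was left out and 5 when arrays were scaled to spiked-in RNA, where Itgav and Tgfb2 missed the threshold (adjusted p = 0.0876 and 0.0552). Tgfb1 had a log2 difference of -0.23 under normexp background correction.

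Of TGF-beta target genes 4 of 10 rose and 0 fell (limma), while 3 were lower at an unadjusted p under 0.05, and the median was 0.08. Tgif1, a transcriptional co-repressor, rose by 0.26 with an SE of 0.049 (adjusted p = 0.0057), and Fn1, fibronectin, by 0.25 with an SE of 0.040 (adjusted p = 0.00278). Col1a1, also a fibroblast marker, rose by 0.20 (adjusted p = 0.027) and Pmepa1 by 0.17 (adjusted p = 0.0409). Both calls were lost without scrambled replicate 4 or Sirt6 shRNA replicate 3 or 4, that of Col1a1 also without replicate 2 of either group (adjusted p up to 0.0667) and that of Pmepa1 also without scrambled replicate 3 or Sirt6 shRNA replicate 1 (adjusted p up to 0.101). Ccn2, a widely used readout, had a log2 difference of -0.47 (adjusted p = 0.0869). The list had 2 calls when replicate 4 of either group was left out and 2 with no filter on dim probes, 7 under normexp background correction, and 1 with E1A scaling, where Fn1 missed the threshold (adjusted p = 0.0548).

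Of Wnt ligands 3 of 13 rose and 2 fell, with a median of 0.03. Wnt5a, a mainly non-canonical ligand, fell by 0.35 with an SE of 0.052 (adjusted p = 0.00203), and by 0.58 on its other probe. Wnt6 was well above background on all 4 scrambled arrays and on 0 Sirt6 shRNA arrays, which makes it at least 1.48-fold lower (adjusted p = 0.0134). Wnt4 rose by 0.26 with an SE of 0.055 (adjusted p = 0.0104) and Wnt9a by 0.16 (adjusted p = 0.031). Leaving out scrambled replicate 1, 2 or 4 or Sirt6 shRNA replicate 2 or 4 took the call of Wnt9a (adjusted p up to 0.0725) and left the list with 3 calls, as did median centring and no filter on dim probes. With E1A scaling the list had 1 call, and Wnt5a and Wnt4 missed the threshold (adjusted p = 0.0735 and 0.0565). Under normexp background correction the log2 difference was -0.22 for Wnt5a and -0.14 for Wnt6.

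Of Wnt receptors 5 of 16 rose and 3 fell, with a median of 0.13. Fzd1 and Fzd4, both Frizzled receptors, fell by 0.49 with an SE of 0.063 (adjusted p = 0.00104) and by 0.33 with an SE of 0.050 (adjusted p = 0.00213). Lgr6, an R-spondin receptor, rose by 0.67 with an SE of 0.11 (adjusted p = 0.0027), with 0.46 on its other probe. Ror1, a receptor for Wnt5a, rose by 0.52 with an SE of 0.13 (adjusted p = 0.0176), but had an adjusted p of 0.308 under normexp background correction. The co-receptors Lrp5 and Lrp6 had log2 differences of 0.0022 and -0.015 and did not pass. Lgr6 had a log2 difference of 0.15 under normexp background correction. The list had 5 calls without Sirt6 shRNA replicate 3 and 5 with no filter on dim probes, and 3 with E1A scaling, where Fzd4 missed the threshold (adjusted p = 0.123).

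Of the other secreted or surface Wnt modulators 3 of 11 rose and 3 fell, with a median of -0.10. Sfrp4, from the same family as Sfrp2 and Frzb, fell by 0.30 with an SE of 0.049 (adjusted p = 0.00293), less than Sfrp2. Draxin, a secreted axon guidance protein, fell by 0.29 (adjusted p = 0.00589). Apcdd1, a membrane inhibitor of Wnt signals, rose by 0.32 with an SE of 0.050 (adjusted p = 0.0025). Rspo2, an R-spondin that amplifies Wnt signals, rose by 0.96 (adjusted p = 0.00816) on a probe well above background on 3 of 4 scrambled arrays, with 0.08 on its other probe. The log2 difference of Rspo2 was 0.13 (adjusted p = 0.0602) and that of Sfrp4 was -0.14 under normexp background correction. The list had 4 calls without scrambled replicate 3, with no filter on dim probes, and with E1A scaling, where Sfrp4 and Draxin missed the threshold (adjusted p = 0.101 and 0.0854).

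Of Wnt target genes 3 of 8 rose and 1 fell, with a median of 0.10. Lef1, which is both a target and an effector of the pathway, fell by 0.41 with an SE of 0.043 (adjusted p = 0.00036), and by 0.57 on its other probe. Nkd1, a feedback inhibitor, rose by 0.25 (adjusted p = 0.0211, and 0.0533 without scrambled replicate 4). Znrf3 and Myc rose by 0.18 (adjusted p = 0.0227) and 0.14 (adjusted p = 0.0449). The call of Znrf3 was lost without replicate 1 of either group, scrambled replicate 2 or Sirt6 shRNA replicate 4 (adjusted p up to 0.0631), and that of Myc without any 1 array other than Sirt6 shRNA replicate 2 (adjusted p up to 0.113). Axin2, the most widely used readout, had a log2 difference of 0.064 with an SE of 0.057 (adjusted p = 0.434). The list had 2 calls when scrambled replicate 1, 2 or 4 or Sirt6 shRNA replicate 1 or 4 was left out and 2 with E1A scaling. With median centring Nkd1, Znrf3 and Myc all missed the threshold (adjusted p = 0.0686, 0.16 and 0.27), which left 1 call, Lef1, and no filter on dim probes also left 1.

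Relatives of Mgp, Htra1 and Cpxm1 were mixed, with 2 of 13 higher and 4 lower. Aebp1, a carboxypeptidase-like matrix protein related to Cpxm1, fell by 1.17 with an SE of 0.087 (adjusted p = 9.1e-05), to 44.4% of its scrambled level. Cpe, the carboxypeptidase that trims neuropeptides, fell by 0.22 (adjusted p = 0.00244), and Cpz, which carries a Frizzled-like domain, rose by 0.59 with an SE of 0.14 (adjusted p = 0.015). Of the Htra1 relatives, Htra4 rose by 0.79 with an SE of 0.090 (adjusted p = 0.000563), while Htra2 and Htra3 had log2 differences of 0.029 and 0.0998 and did not pass. Gas6, which encodes a vitamin K-dependent protein as Mgp does, fell by 0.40 with an SE of 0.042 (adjusted p = 0.000371). Ggcx and Vkorc1, the enzymes that make and supply the Gla modification, had log2 differences of 0.097 and -0.080 and did not pass. Under normexp background correction the log2 difference was 0.21 for Cpz and 0.21 for Htra4, and with E1A scaling Cpe missed the threshold (adjusted p = 0.292).

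Mgp, Htra1 and the secreted Wnt inhibitors are also made by cells other than neurons, so 8 lists of cell markers were read on the same arrays. Tested markers had passed the filter on dim probes by design, so their detection is no separate result. The filter left out Lum (fibroblast), Rgs5, Kcnj8 and Des (mural), Cldn5, Flt1 and Esam (endothelial), and Kl and Clic6 (choroid plexus). The counts of each marker list therefore cover tested genes only. Values of a list are the mean deviation of its genes from their 8-array means, as a range over the 4 samples of a group. Astrocyte markers ran from 0.074 to 0.20 in the scrambled group and from -0.19 to -0.056 in the Sirt6 shRNA group. Of the 12 tested, 8 were lower and 1 higher. The lower calls numbered 9 with median centring, 5 with E1A scaling and 6 to 8 when 1 array was left out. S100b fell by 1.42 (adjusted p = 3e-05), Gfap by 0.71 (adjusted p = 0.000286) and Gja1 by 0.63 (adjusted p = 0.000287), while Gjb6 rose by 1.15 (adjusted p = 0.000244), and by 0.49 under normexp background correction. Meningeal fibroblast markers ran from -0.14 to -0.021 and from -0.0099 to 0.15, with 8 of 11 higher and 1 lower. Crabp2 rose by 0.60 (adjusted p = 0.0012) and Slc6a13 by 0.53 (adjusted p = 0.000377, and by 0.27 under normexp background correction), while Fmod, a small matrix proteoglycan, fell by 1.97 (adjusted p = 7.7e-05).

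Mural and smooth muscle markers ran from -0.46 to -0.26 in the scrambled group and from 0.31 to 0.47 in the Sirt6 shRNA group, with 5 of 7 higher and 0 lower by limma, and 0 lower at an unadjusted p under 0.05. Tagln rose by 2.14 (adjusted p = 2.6e-05), Myh11 by 0.92 (adjusted p = 0.000271) and Acta2 by 0.71 (adjusted p = 0.00053), the last 2 by 0.52 and 0.31 under normexp background correction. Endothelial markers ran from -0.17 to -0.0016 and from -0.035 to 0.22, with 2 of 6 higher. Kdr rose by 0.41 (adjusted p = 0.00613), and by 0.25 under normexp background correction. Slco1a4 rose by 0.60 (adjusted p = 0.0429), a call lost in 6 of 8 omissions of 1 array (adjusted p up to 0.1) and under normexp background correction (adjusted p = 0.264), quantile normalization and median centring and with no filter on dim probes. Only scrambled replicate 2 and Sirt6 shRNA replicate 3 could be left out with this call kept. Microglia markers overlapped, from 0.057 to 0.45 and from -0.51 to 0.27, with 3 of 8 lower. Tmem119 fell by 0.89 (adjusted p = 0.00814), and by 0.57 under normexp background correction. P2ry12 and Csf1r fell by 0.68 (adjusted p = 0.0364) and 0.57 (adjusted p = 0.0457), and each call was lost in 6 of 8 omissions of 1 array (adjusted p up to 0.0913 and 0.112). The list had 1 call without scrambled replicate 2 or 4 or Sirt6 shRNA replicate 1, 3 or 4, 2 without scrambled replicate 1 or 3, and 7 without Sirt6 shRNA replicate 2. Oligodendrocyte lineage markers ran from 0.055 to 0.17 and from -0.13 to -0.072, with 1 of 7 lower, Mbp, which fell by 1.31 (adjusted p = 0.000132) on 1 probe and had 0.03 on the other. Choroid plexus markers, from -0.29 to 0.62 and from -0.47 to 0.33, had 0 of 4 called by limma and 0 at an unadjusted p under 0.05.

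Neuron markers overlapped, from -0.077 to -0.025 and from -0.052 to 0.11, with 4 of 8 higher and 1 lower. Nefm rose by 0.35 (adjusted p = 0.00193), Tubb3 by 0.32 (adjusted p = 0.00508) and Rbfox3 by 0.25 (adjusted p = 0.0099), and Gad1, of inhibitory neurons, fell by 0.41 (adjusted p = 0.0006). The list had 3 calls with median centring and 3 with E1A scaling, where Rbfox3 missed the threshold (adjusted p = 0.0654 and 0.0796). The astrocyte, mural, oligodendrocyte and fibroblast lists separated the groups without overlap. In the Sirt6 shRNA group the astrocyte and oligodendrocyte lists were lower, and the mural and fibroblast lists were higher. Their part in the values of the 10 genes was not tested.

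Across 16 other ways of processing the arrays, the log2 difference of Mgp stayed between -1.77 and -1.65, that of Cpxm1 between -1.59 and -1.35, that of Sfrp2 between -1.39 and -0.93, that of Htra1 between -1.09 and -0.83 and that of Frzb between -0.71 and -0.47. Id1 stayed between 0.27 and 0.44, Bmp4 between 0.11 and 0.52, and Id3 between -0.33 and -0.11. Sfrp1 lay between -0.0083 and 0.12 and Dkk3 between -0.028 and 0.098. Sfrp1 was below 0 only with median centring, and Dkk3 with median centring, with the mean of its probes and without scrambled replicate 4. The smallest differences of Mgp, Htra1, Cpxm1, Sfrp2, Frzb, Bmp4, Id1 and Id3 came from normexp background correction with an offset of 50. For Mgp, scaling to spiked-in E1A RNA gave nearly the same value. That offset is added to every signal before the log2 is taken, which by itself makes differences smaller, most of all for dim probes.

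**Figure D5:**
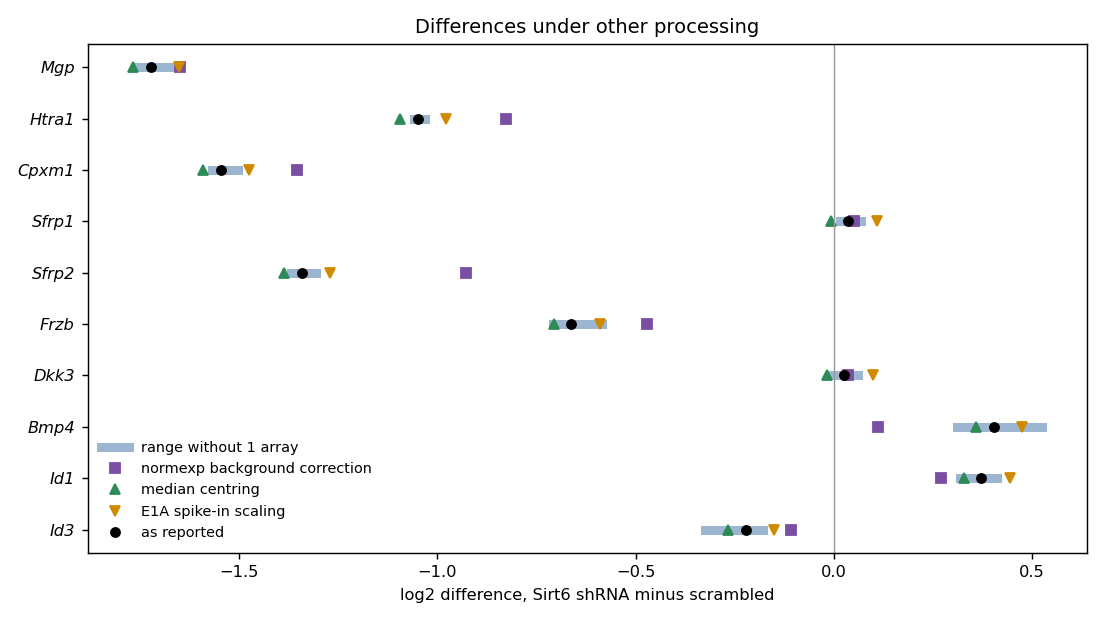
Log2 difference (Sirt6 shRNA minus scrambled, x axis) of each of the 10 genes as reported (black), under normexp background correction, median centring and scaling to spiked-in E1A RNA, with the bar giving the range when 1 array at a time was left out. Mgp, Htra1, Cpxm1, Sfrp2 and Frzb stay below 0 and Bmp4 and Id1 above it in every setting drawn, and Sfrp1 and Dkk3 run from below 0 to 0.11 and 0.098.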

How the data were processed

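Total RNA was labelled with Cy3 and hybridised to 1-colour Agilent arrays. The deposited spot intensity values come, per the submitters' processing notes, from version 11.5.1.1 of Agilent Feature Extraction, and its processed signal is background-subtracted, per the file headers. The deposited log2 table of the authors differed from log2 processed signal by a constant per array and served as an alternative. Here outlier spots and control probes were left out, spots of a probe were averaged in log2, and each array's 75th percentile was subtracted. Of 45598 probes, 28620 that were well above background on at least 4 of 8 arrays were kept, and a gene is its brightest kept probe. Symbols were updated through a RefSeq table (GRCr8), with the file's own name kept for 16260 probes. Probe positions are those of the array design (rn4), and exon or UTR annotation of that build was not used here. Sirt6 shRNA was set against scrambled by lmFit and eBayes of limma 3.58.1 (R 4.3.3) as a two-sided test, with Benjamini-Hochberg adjustment over 22549 genes, and the script was tested on simulated data. Precision is limited by the 4 arrays per group. The members and all lists were chosen with earlier results of these data known. Named genes are the 10 members, up to 4 called genes of largest difference per list (or, for lists with under 2 calls, the 2 with the smallest p), and the 3 genes most correlated with each member. Other genes of these lists that are named were chosen after their values were seen. Same-numbered replicates had correlated deviations of 0.066, 0.16, 0.13 and 0.034, so the numbers were not treated as pairs. Alternatives were normexp background correction, quantile normalization, median centring, spike-in scaling, the authors' values, no filter, the mean of a gene's probes, a replicate block and leaving out each array.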

Additional observations from a re-analysis of the deposited data

Results flagged for a closer look

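In 11 of 156 groups of 4 samples examined (78 genes), the highest or lowest sample stood far from the other 3, where chance alone gives about 1 in 20. Values are log2 levels, with the range of the other 3 samples. Sirt6 shRNA replicate 2 stood highest for Id1 (0.21, others 0.03 to 0.06), Id3 (-2.19, others -2.63 to -2.57), Aebp1 (0.71, others 0.33 to 0.39), Tmem119 (-1.49, others -2.22 to -2.11) and P2ry12 (-1.81, others -2.73 to -2.60). It stood lowest for Gdf11 (0.44, others 0.51). Sirt6 shRNA replicate 4 stood lowest for Htra1 (-1.08, others -1.02 to -1.01) and Emilin1 (-0.43, others -0.26 to -0.24). Sirt6 shRNA replicate 1 stood highest for Acvr2a (-0.80, others -1.11 to -1.06). In the scrambled group, replicate 1 stood highest for Sfrp2 (-0.82, others -0.95 to -0.93) and replicate 3 for Myh11 (-2.31, others -2.57 to -2.54). The levels of Id3 in the 2 groups overlap through Sirt6 shRNA replicate 2 alone.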

How the results depend on the processing

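Of the 10 genes, Sfrp1 (median centring, -0.0083) and Dkk3 (3 of 16 alternatives) changed sign, and the other 8 kept theirs in all 16, as did Sirt6, with its call (log2 difference -1.57 to -1.41, highest adjusted p 0.00176). Normexp background correction gave log2 differences of -0.83 for Htra1, -1.35 for Cpxm1, -0.93 for Sfrp2, -0.47 for Frzb and 0.11 for Bmp4. Median centring gave -1.09 for Htra1. Scaling to E1A spike-in RNA gave -0.98 for Htra1, -1.27 for Sfrp2 and 0.11 for Sfrp1, and the mean of a gene's probes gave 0.12 for Sfrp1. The genes called over all genes numbered 6866, and 3345 with E1A scaling (2120 higher, 1225 lower). Median centring left 1999 higher calls, against 3522. Calls in the pathway lists, 27 higher and 37 lower, were 15 higher with median centring, with E1A scaling and with no filter on dim probes, 14 lower with E1A scaling, and 17 to 24 higher when 1 array was left out. The cause was not tested. With the replicate number as a block 6422 genes were called, 22 higher and 32 lower in the pathway lists. Replicates 2 and 3 correlated best with their own number and replicates 1 and 4 did not. The block left BMP and GDF ligands with 4 calls, gave BMP target genes 2, and took the calls of Lrrc32 (adjusted p = 0.0517) and Wnt6 (adjusted p = 0.0563). Of 67 named list genes, 25 lost a call in at least 1 alternative, 2 gained one and 0 reversed. With 4 arrays a group, Bmp4 had the largest SE of the 10 genes, 0.13, and Htra1 the smallest, 0.035. The Htra1 probe had 6 to 10 spots per array, and Mgp, the brightest of the 10, had an SE of 0.071. The part of probe brightness in these SEs was not tested.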
